A study of Oryctolagus cuniculus with 9 samples.

Results

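Genes that mark Schwann cells, axons, neuroendocrine cells and neuropeptides were followed across RNA-seq libraries of rabbit urethral tissue. The set was chosen by name, with earlier results of these data known, and held 32 genes. A row was found by symbol for 29 of them among the 28788 rows of the deposited count table. They were separated into 13 glial genes, 11 neuronal genes and 5 neuroendocrine or neuropeptide genes. TUBB3, a neuronal tubulin, had no row under its symbol and was found only as LOC100341581, so its values are given beside the 29 and are not counted among them. TH and DBH, enzymes of catecholamine synthesis, were not analysed here. After the filter on low counts 24 of the 29 were tested, and the 5 others are given by their counts.

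The study concerned a trilayer hydrogel for urethral repair in the rabbit, and its sequencing was meant to show how the material acts on repair. Polyadenylated RNA was sequenced in 9 libraries, 3 each with the codes S9, S7 and S6. Every library is labelled only as urethral tissue of Oryctolagus cuniculus. The labels give no treatment, time, strain, age or animal for a code, and they name no control. The 3 libraries of a code may therefore be separate animals or technical repeats, and p-values measure the spread between libraries. S9 holds libraries S9_1, S9_2 and S9_4, S7 holds S7_2, S7_3 and S7_4, and S6 holds S6_2, S6_3 and S6_4. Values of a code are given in that order.

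Schwann cells are the glia of peripheral nerves. Under the transcription factor SOX10 they either wrap large axons in myelin, which contains proteins such as MBP and PMP22, or hold small axons without myelin, and the cells without myelin express NGFR, NCAM1, L1CAM and GFAP. After nerve injury Schwann cells lower their myelin genes and take up a repair state with high NGFR and GAP43. The urethra receives sympathetic, parasympathetic and sensory fibres whose cell bodies lie mostly outside the wall, so a tissue sample holds axons and glia but few neuronal nuclei. Its epithelium also contains scattered neuroendocrine cells that store chromogranins and secretogranins in dense-core granules.

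Total counts lay between 35127085 and 36832773 per library. The 29 genes took 18025 to 32325 counts of a library, and 25 to 28 of them had a count. Levels are CPM after scaling by the trimmed mean of M-values (TMM), and levels of different genes are compared only as FPKM, which corrects for gene length. Differences were tested with edgeR's quasi-likelihood method over 17102 genes with Benjamini-Hochberg adjustment, and "called" means an adjusted p below 0.05. The libraries S9_4, S7_3 and S6_4 stood apart in mitochondrially encoded genes, with 0.243% to 0.419% of their counts there, against 0.910% to 1.52% in the other 6. Markers of other cells moved with the codes. Over 8 smooth muscle markers the summed level was 6616 to 12630.3 CPM in S9, 3431 to 11046 CPM in S7 and 2051 to 3634 CPM in S6, and 6 of the 8 were called higher in S9 than in S6. Over 8 neutrophil and macrophage markers it was 549 to 919 CPM in S9, 3038 to 6699 CPM in S7 and 8785 to 16545 CPM in S6, and 7 of the 8 were called lower in S9 than in S6. The 6 T and NK cell markers that had a row summed to 13.6 to 30.5 CPM in S9, 18.9 to 43.02 CPM in S7 and 37.5 to 110.4 CPM in S6, and 4 of them were called lower in S9 than in S6. None of 9 epithelial and 6 fibroblast markers was called in S9 against S6, and 2 of 6 endothelial markers were called higher. The melanocyte lineage shares SOX10 with glia. Of its 6 markers, PMEL was at 0 in every library and TYR had 1 count in all, in S9_2. Of the 3 tested, MLANA was called lower in S9 than in S6, and 2 had a positive log2 fold change and were not called. Over the 6 markers the summed level was 23.9 to 28.3 CPM in S9, 15.9 to 22.2 CPM in S7 and 26.4 to 32.6 CPM in S6. The part of these cells in the results below was not tested. In bulk tissue, fewer cells of a type and less RNA per cell cannot be told apart.

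Defining Schwann cell genes were present in every library. In FPKM, the mean over the 9 libraries was 4.42 for SOX10, 10.2 for S100B and 2.07 for CDH19. Of defining neuronal genes, the same mean was 1.89 FPKM for UCHL1, 0.954 for NEFL, 0.281 for NEFM, 0.04404 for PRPH and 0.966 for the row matched to TUBB3.

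Most of the calls in the set lay between S9 and S6. Higher in S9 were the glial genes SOX10, NGFR, NCAM1 and TPPP, the neuronal genes UCHL1 and RET and the granule genes CHGA and CHGB, while the glial gene CNP was lower. Calls were thus made for 9 of the 24 tested genes, 8 higher and 1 lower, or 37.5%, against 12.4% of all tested genes, of which 6.02% were called higher and 6.34% lower. DESeq2 called 12 higher and 1 lower, with 12% and 12.2% of all genes, and limma-voom 12 higher and 1 lower, with 12.2% and 11.6% of all genes. The limma-voom fit gave each library a weight by its estimated quality. The median log2 fold change was 1.33 over the 24 genes, against -0.01 over all genes. The 3 libraries of S9 lay wholly above those of S6 in 15 of the 24, and wholly below in 1, against 18.6% and 17% of all genes. A gene may have passed the filter through the code in which it was high, so these shares describe the genes and do not test them.

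**Figure D1:**
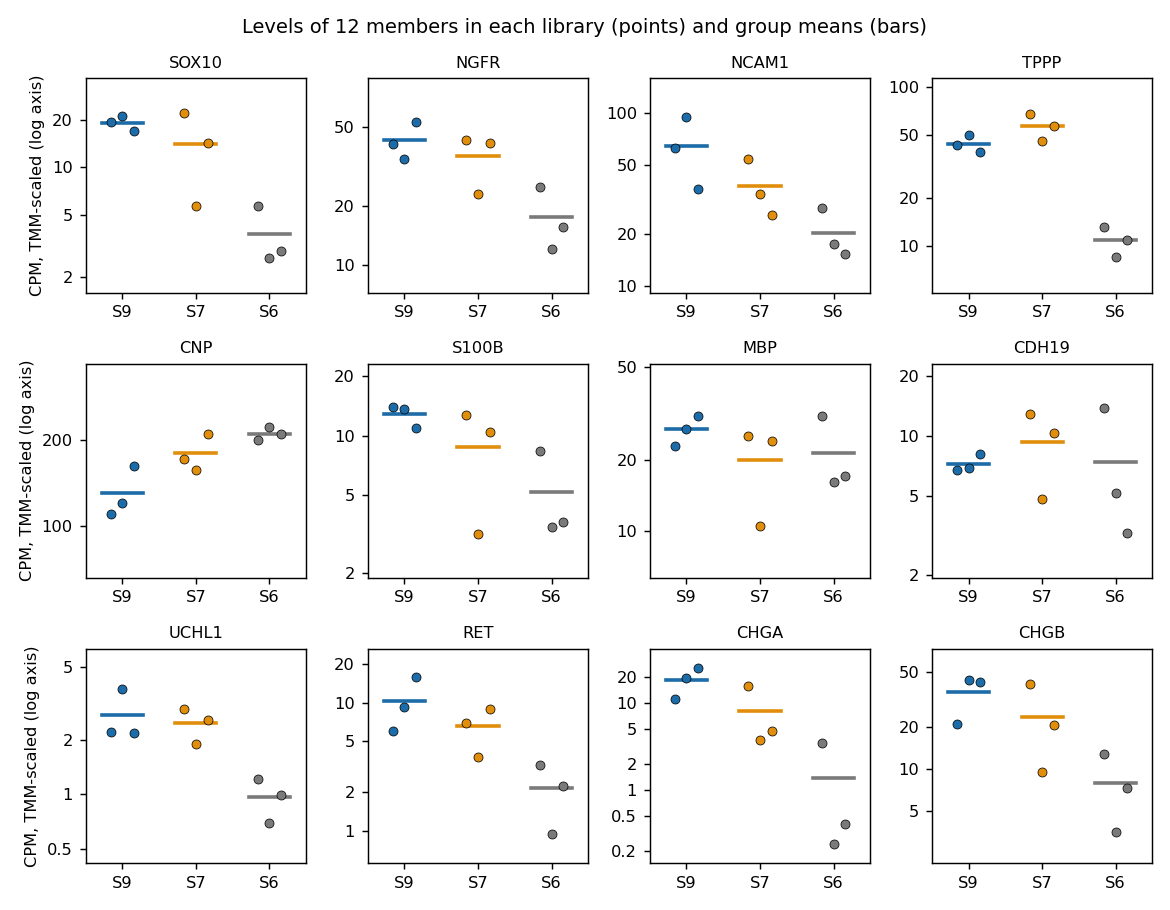
Levels of 12 genes in CPM on a log axis, with 1 point per library, 3 libraries for each of S9, S7 and S6 and a bar at the group mean. SOX10, NGFR, NCAM1, TPPP, UCHL1, RET, CHGA and CHGB had their lowest group mean in S6, CNP had its highest there, and the ranges of MBP and CDH19 overlapped between S9 and S6.

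SOX10, the transcription factor that specifies Schwann cells and keeps them differentiated, was found at 19.3, 21.1 and 16.8 CPM in the S9 libraries, against 5.69, 2.66 and 2.92 CPM in the S6 libraries. The lowest S9 library was well above the highest S6 library (log2 fold change 2.34 with a standard error of 0.49, adjusted p by edgeR = 0.0253). TPPP, a tubulin-binding protein best known from oligodendrocytes, had the smallest adjusted p of the 24 genes. Its levels were 43.1, 49.8 and 38.9 CPM in the S9 libraries, against 13.3, 8.51 and 11.02 CPM in the S6 libraries, with no overlap (log2 fold change 2.004 with a standard error of 0.22, adjusted p by edgeR = 0.00941). NCAM1, an adhesion molecule of axons and of Schwann cells without myelin that NK cells also carry, was found at 62.3, 94.4 and 36.6 CPM in the S9 libraries, against 28.2, 17.6 and 15.3 CPM in the S6 libraries (log2 fold change 1.66 with a standard error of 0.41, adjusted p by edgeR = 0.0358). It was far more variable within S9 than SOX10, with a coefficient of variation of 44.96% against 11.3%. NGFR, the low-affinity neurotrophin receptor of Schwann cells and of some stromal and basal epithelial cells, was found at 40.9, 34.5 and 52.6 CPM in the S9 libraries, against 24.9, 12.1 and 15.7 CPM in the S6 libraries, again with no overlap (log2 fold change 1.28 with a standard error of 0.33, adjusted p by edgeR = 0.0398).

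CNP, a cyclic nucleotide phosphodiesterase abundant in myelinating glia and present in many other cells, went the other way. Its levels were 110.0, 121 and 162 CPM in the S9 libraries, against 200.1, 221 and 209 CPM in the S6 libraries. The codes did not overlap (log2 fold change -0.68 with a standard error of 0.18, adjusted p by edgeR = 0.0412). MAL, a membrane proteolipid of myelin that T cells and the apical membrane of epithelia also use, was not called, with 81.8, 75.5 and 180.1 CPM in the S9 libraries, against 231, 211 and 145 CPM in the S6 libraries (log2 fold change -0.798 with a standard error of 0.398, adjusted p by edgeR = 0.209). The S9 and S6 ranges of MAL overlapped through S9_4 and S6_4, both of which had few mitochondrial counts. In FPKM, the means over the 9 libraries were 143 for MAL, 70.5 for CNP and 56.96 for PMP22, the 3 highest of the 29. Their order differed between codes, since PMP22 averaged 81.7 FPKM and CNP 54.96 FPKM in S9, while PMP22 averaged 31.4 FPKM and CNP 84.7 FPKM in S6.

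PMP22, S100B, L1CAM and GFAP did not pass the test, although each S9 library lay above each S6 library in all 4. PMP22, a myelin membrane protein also made by fibroblasts and epithelia, was found at 165, 179 and 146 CPM in the S9 libraries, against 97.5, 52.9 and 44.3 CPM in the S6 libraries (log2 fold change 1.33 with a standard error of 0.38, adjusted p by edgeR = 0.0542). S100B, a calcium-binding protein of Schwann cells, was found at 13.9, 13.7 and 10.98 CPM in the S9 libraries, against 8.37, 3.42 and 3.65 CPM in the S6 libraries (log2 fold change 1.32 with a standard error of 0.52, adjusted p by edgeR = 0.124). L1CAM, which binds axons to glia, ranged over 13.6 to 17.9 CPM in the S9 libraries, against 3.08 to 8.48 CPM in the S6 libraries (log2 fold change 1.27 with a standard error of 0.41, adjusted p by edgeR = 0.0744). GFAP, an intermediate filament of astrocytes and of Schwann cells without myelin, was scarce throughout, with 3.15 to 4.55 CPM in the S9 libraries, against 1.300 to 2.31 CPM in the S6 libraries (log2 fold change 1.08 with a standard error of 0.46, adjusted p by edgeR = 0.145).

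MBP, CDH19 and GFRA3 showed no such separation. MBP, a major protein of compact myelin, was found at 23.1, 27.3 and 31.05 CPM in the S9 libraries, against 30.99, 16.2 and 17.1 CPM in the S6 libraries. S6_2 was level with the highest S9 library (log2 fold change 0.34 with a standard error of 0.36, adjusted p by edgeR = 0.565). CDH19, a cadherin of the Schwann cell lineage, was found at 6.78, 6.902 and 8.13 CPM in the S9 libraries, against 13.8, 5.15 and 3.24 CPM in the S6 libraries, so that the S9 libraries lay inside the range of S6 (log2 fold change -0.03 with a standard error of 0.53, adjusted p by edgeR = 0.9800). GFRA3, the binding receptor of the growth factor artemin, ranged over 2.94 to 7.73 CPM in the S9 libraries, against 3.16 to 5.61 CPM in the S6 libraries (log2 fold change 0.09 with a standard error of 0.43, adjusted p by edgeR = 0.914). A p that misses the threshold does not show that the levels of these 3 genes were equal.

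Because the glial genes differed unequally, each was divided by SOX10 within a library, as a ratio of FPKM values, which does not depend on the scaling between libraries. The ratio was chosen after the values were seen and is described without a test, and all ratios share SOX10 as their divisor. The ratio of MBP to SOX10 was 1.31, 1.42 and 2.02 in the S9 libraries, 1.28, 2.02 and 1.86 in the S7 libraries and 5.98, 6.67 and 6.41 in the S6 libraries. All 6 libraries of S9 and S7 were far below the 3 of S6, also S7_3, whose SOX10 level was close to that of S6_2. The ratio of S100B to SOX10 was 2.29, 2.05 and 2.07 in S9, 1.84, 1.75 and 2.32 in S7 and 4.66, 4.07 and 3.95 in S6, with the same separation. PMP22 to SOX10 lay at 11.5 to 11.8 in S9, 10.2 to 14.9 in S7 and 20.7 to 27.1 in S6. CDH19 to SOX10 lay at 0.237 to 0.349 in S9, 0.425 to 0.616 in S7 and 0.804 to 1.76 in S6. Of the 12 glial genes other than SOX10, 11 had a ratio that was lower in each S9 library than in each S6 library, and 8 had one that was lower in each S7 library than in each S6 library. The exception in S9 was TPPP, at 0.947 to 0.997 in S9 and 0.9896 to 1.596 in S6. SOX10 itself had the largest log2 fold change of the glial genes between S9 and S6, 2.34, against 2.004 for TPPP. Most genes divided by it would therefore be lower in S9, so these counts say little about the glial genes. The share of all genes with such a ratio was not counted.

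**Figure D2:**
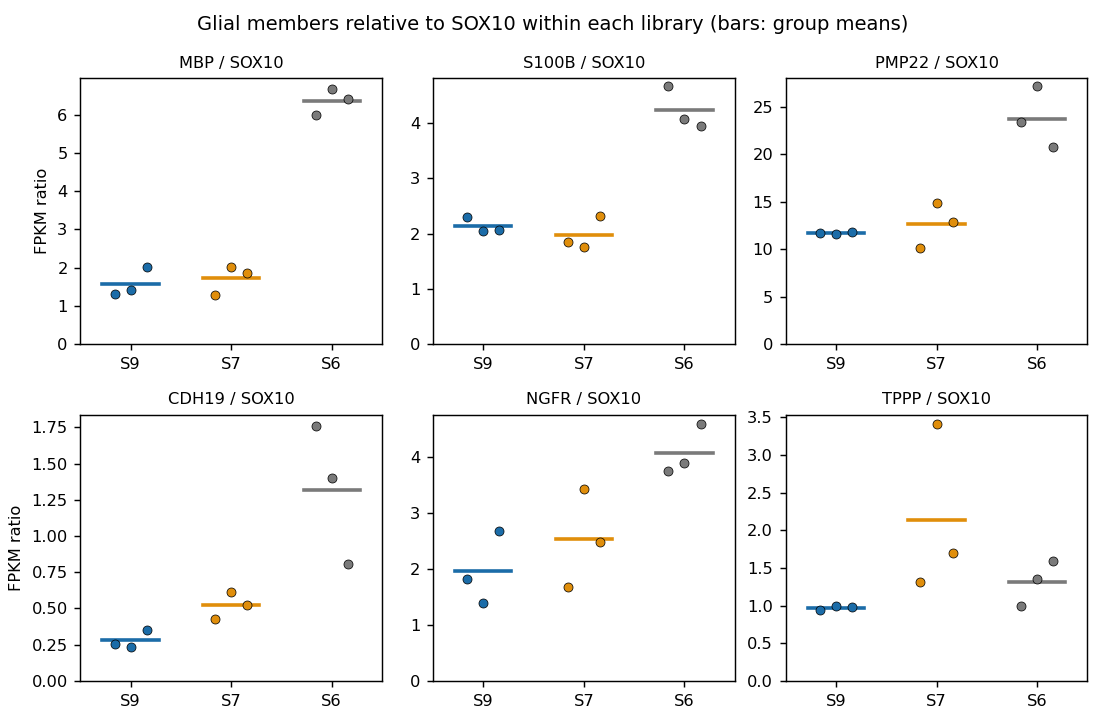
Ratio of the FPKM of 6 glial genes to the FPKM of SOX10, with 1 point per library and a bar at the mean of the 3 libraries of S9, S7 and S6. MBP to SOX10 was 5.98 or more in each S6 library and 2.02 or less in the other 6, and TPPP to SOX10 was highest in S7_3.

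Of the 11 neuronal genes, 8 were tested. UCHL1, a neuronal deubiquitinase, was found at 2.197, 3.81 and 2.17 CPM in the S9 libraries, against 1.22, 0.696 and 0.992 CPM in the S6 libraries (log2 fold change 1.49 with a standard error of 0.42, adjusted p by edgeR = 0.0492). RET, the signalling receptor for ligands of the GDNF family, was found at 5.98, 9.31 and 15.8 CPM in the S9 libraries, against 3.28, 0.939 and 2.25 CPM in the S6 libraries (log2 fold change 2.26 with a standard error of 0.55, adjusted p by edgeR = 0.0358). For both genes the S9 libraries lay above the S6 libraries. These were the 2 calls among the 8 genes, whose median log2 fold change was 1.47, and 6.02% of all tested genes were called higher.

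The other 6 tested neuronal genes were not called. SNAP25, a membrane fusion protein of nerve endings, had 45, 14 and 38 counts in the S9 libraries, against 8, 2 and 3 counts in the S6 libraries (log2 fold change 2.81 with a standard error of 0.81, adjusted p by edgeR = 0.0533). GAP43, a protein of growing axons and of repair Schwann cells, was found at 2.88, 1.999 and 2.303 CPM in the S9 libraries, against 1.87, 0.817 and 0.965 CPM in the S6 libraries (log2 fold change 0.97 with a standard error of 0.42, adjusted p by edgeR = 0.153). The codes did not overlap for SNAP25 or GAP43. NEFL and NEFM, the light and medium neurofilament chains, varied widely between the S6 libraries. NEFL was found at 2.83, 4.14 and 5.21 CPM in the S9 libraries, against 3.55, 0.121 and 0.509 CPM in the S6 libraries, and at 9.82 CPM in S7_2 (log2 fold change 1.54 with a standard error of 1.09, adjusted p by edgeR = 0.372). NEFM had 9 to 75 counts in the S9 libraries, against 68 counts in S6_2 and 1 count each in S6_3 and S6_4 (log2 fold change 0.57 with a standard error of 1.43, adjusted p by edgeR = 0.8302). The sign for NEFM depended on single libraries, with a log2 fold change of -0.58 to 4.89 when 1 library was left out. SYP, a synaptic vesicle protein, had 12, 26 and 7 counts in the S9 libraries, against 12, 6 and 2 counts in the S6 libraries (log2 fold change 1.102 with a standard error of 0.87, adjusted p by edgeR = 0.429). SYT1, a calcium sensor of vesicle release, ranged over 5.19 to 14.2 CPM in the S9 libraries, against 1.03 to 6.07 CPM in the S6 libraries (log2 fold change 1.44 with a standard error of 0.71, adjusted p by edgeR = 0.2001), and NEFL, NEFM, SYP and SYT1 all overlapped between S9 and S6.

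Of the genes below the filter, STMN2, a growth cone protein, had 2, 6 and 5 counts in S9, 0, 4 and 6 in S7 and 0, 4 and 0 in S6. PRPH, the filament of peripheral neurons, had 6, 6 and 1 counts in S9, 7, 1 and 5 in S7 and 1, 4 and 2 in S6. ELAVL4, an RNA-binding protein of neuronal cell bodies, had 2, 12 and 7 counts in S9 and 0 in each S7 and S6 library. Its summed level in S9, from 21 counts, was 6.70-fold above a floor of 3 counts over the S6 libraries. This value leaves out the spread between libraries, and the gene was not tested. The row matched to TUBB3 was found at 1.35, 1.29 and 5.82 CPM in the S9 libraries, against 3.17, 3.18 and 3.32 CPM in the S6 libraries, with S6 inside the range of S9 (log2 fold change -0.19 with a standard error of 0.66, adjusted p by edgeR = 0.876).

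Granule genes of neuroendocrine cells included CHGA, which had the largest fitted fold change of the 24 tested genes. CHGA, chromogranin A, was found at 11.01, 19.6 and 25.3 CPM in the S9 libraries, against 3.44, 0.242 and 0.402 CPM in the S6 libraries (log2 fold change 3.77 with a standard error of 1.02, adjusted p by edgeR = 0.0448). CHGB, chromogranin B, was found at 21.1, 43.96 and 41.9 CPM in the S9 libraries, against 12.8, 3.51 and 7.29 CPM in the S6 libraries (log2 fold change 2.18 with a standard error of 0.61, adjusted p by edgeR = 0.0493). Each S9 library was above each S6 library for both. SCG2, secretogranin II, was found at 22.7, 20.2 and 37.7 CPM in the S9 libraries, against 8.83, 0.303 and 1.77 CPM in the S6 libraries, also without overlap, and was not called (log2 fold change 2.88 with a standard error of 1.02, adjusted p by edgeR = 0.0935). S6_2 was the highest S6 library for all 3 granule genes.

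VIP and NPY, the neuropeptide genes of the set, were nearly absent. VIP, a peptide of relaxing parasympathetic fibres, had 0 counts in all 9 libraries, which allows up to 3 counts, or 0.0794 to 0.0908 CPM, in a library. NPY, a peptide of sympathetic fibres, had 1, 0 and 0 counts in S9, 2, 0 and 1 in S7 and 0, 0 and 4 in S6, with 4 as its highest count. These limits cover counting error only.

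The calls between S9 and S6 depended on single libraries. With 1 library left out at a time, edgeR called 9 genes of the set higher without S6_2, 8 without S7_3 and 7 without S7_2, but 3 without S7_4 or S9_4, 1 without S6_3 or S6_4 and 0 without S9_1 or S9_2. Of all tested genes, 2115 were called in either direction with all libraries. This count was 2056 without S6_2, 2076 without S7_3, 2043 without S7_2 and 1947 without S9_4. It was 1197 without S7_4, 1025 without S6_3 and 89 without S6_4. Without S9_4 the set thus lost most of its calls while the count over all genes changed little. Without S9_1 no gene of all those tested was called, and without S9_2 there were 4. In each of these last settings 12 of the 24 genes had an unadjusted p below 0.05 and a positive log2 fold change, against 15 with all libraries, where 15.4% of all genes did. Over the 9 settings TPPP was called in 7, with a log2 fold change of 1.87 to 2.17 and an adjusted p by edgeR of up to 0.0672. SOX10 was called in 5, at 2.16 to 2.77 and an adjusted p by edgeR of up to 0.0976, and NCAM1 also in 5, at 1.28 to 1.97 and an adjusted p by edgeR of up to 0.114. NGFR, RET, CHGA and CHGB were called in 3 settings each, CNP in 2 and UCHL1 in none. The highest adjusted p by edgeR over these settings was 0.119 for NGFR, 0.0999 for RET, 0.122 for CHGA, 0.135 for CHGB, 0.156 for CNP and 0.164 for UCHL1. The fold changes of these 9 genes kept their sign in each of the 9 settings. Without S6_2 the log2 fold change of CHGA was 5.83, and SCG2 and PMP22 were called too. In the 6 libraries with many mitochondrial counts 0 of the 24 were called, and 7 genes of all that were tested, while 12 of the 24 had an unadjusted p below 0.05 and a positive log2 fold change. The values there were a log2 fold change of 2.27 for SOX10 with an adjusted p by edgeR of 0.0659, 2.09 for TPPP with 0.0584, 3.04 for CHGA with 0.184 and -0.87 for CNP with 0.0768.

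**Figure D3:**
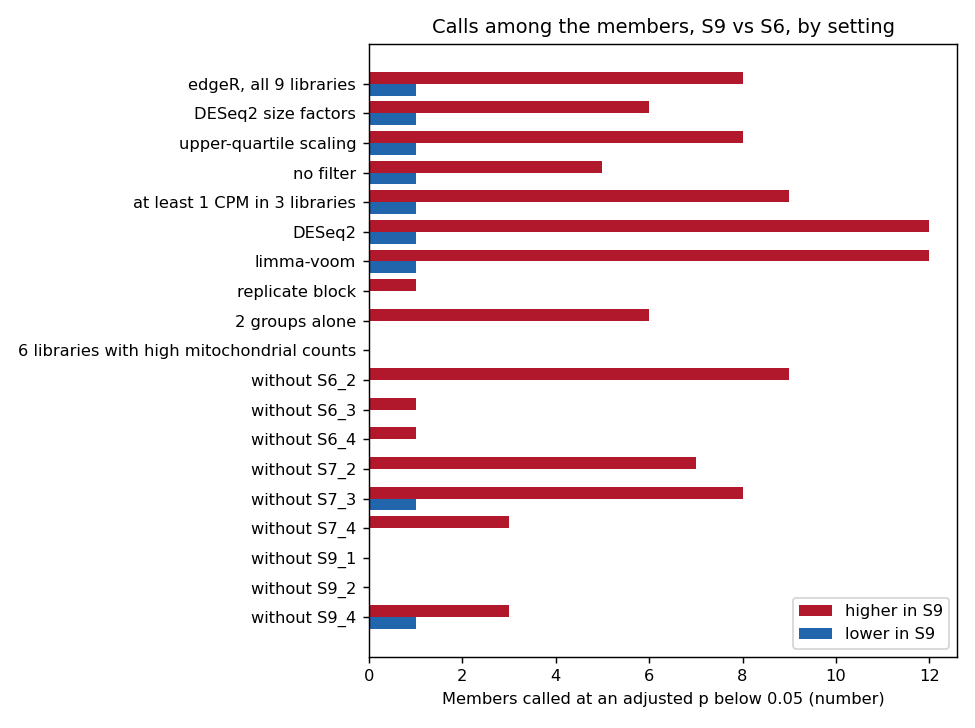
Number of the 24 genes called higher (red) and lower (blue) in S9 than in S6 under each setting of the fit. With all 9 libraries edgeR called 8 higher and 1 lower, DESeq2 and limma-voom each called 12 higher and 1 lower, and without S9_1 or S9_2 edgeR called none.

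Between S7 and S6, TPPP was the sole call of the set. It was found at 68.1, 45.8 and 57.1 CPM in the S7 libraries, against 13.3, 8.51 and 11.02 CPM in the S6 libraries, so that each S7 library was more than 3-fold above each S6 library (log2 fold change 2.38 with a standard error of 0.22, adjusted p by edgeR = 0.0303). This was 1 of 24 tested genes, or 4.17%, against 0.111% of all tested genes, with 0.0468% called higher and 0.0643% lower. The call was lost without S6_4, S7_2, S7_4 or S9_1, with adjusted p by edgeR between 0.0561 and 0.0841, and the log2 fold change was at least 2.23 in each of the 9 settings. In the 6 libraries with many mitochondrial counts the log2 fold change was 2.52 with an adjusted p by edgeR of 0.255. DESeq2 called 6 of the 24 higher in S7, which were SOX10, NGFR, TPPP, UCHL1, RET and CHGA, with 4.01% of all genes, and limma-voom called TPPP, with 0.795%.

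The S7 libraries lay wholly above the S6 libraries in 7 of the 24 genes, against 10.7% of all. These were SOX10, L1CAM, TPPP, UCHL1, SNAP25, RET and CHGA. For SOX10, at 21.9, 5.697 and 14.2 CPM in the S7 libraries, the gap was small, since S7_3 at 5.697 CPM met S6_2 at 5.69 CPM (log2 fold change 1.89 with a standard error of 0.48, adjusted p by edgeR = 0.125). UCHL1, at 2.95, 1.899 and 2.56 CPM in the S7 libraries, was more even (log2 fold change 1.35 with a standard error of 0.41, adjusted p by edgeR = 0.159). RET was at 6.96, 3.798 and 8.88 CPM there (log2 fold change 1.599 with a standard error of 0.54, adjusted p by edgeR = 0.1898). CHGA was at 15.7, 3.798 and 4.77 CPM (log2 fold change 2.56 with a standard error of 0.97, adjusted p by edgeR = 0.227) and CHGB, which overlapped S6, at 40.7, 9.49 and 20.8 CPM (log2 fold change 1.59 with a standard error of 0.598, adjusted p by edgeR = 0.224). S7_2 was the highest S7 library for both granule genes by a wide margin. CNP, at 172, 157 and 209.6 CPM in the S7 libraries, overlapped S6 (log2 fold change -0.23 with a standard error of 0.18, adjusted p by edgeR = 0.575). The median log2 fold change was 0.77 over the 13 glial genes, 1.47 over the 8 neuronal genes and 1.59 over the 3 granule genes, against -0.01 over all genes. S9 and S7 were compared with the same S6 libraries, so these comparisons share them.

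Between S9 and S7 none of the 24 genes was called by edgeR, DESeq2 or limma-voom. The edgeR test called 0 of the 17102 genes, or 0%, while 9.21% had an unadjusted p below 0.05, DESeq2 called 0.723% and limma-voom 0%. Among the 24 genes the unadjusted p was below 0.05 for 1, CNP, which was lower in S9 in that test as were 5.06% of all genes. CNP ranged over 110.0 to 162 CPM in the S9 libraries, against 157 to 209.6 CPM in the S7 libraries, with overlap (log2 fold change -0.46 with a standard error of 0.18, adjusted p by edgeR = 0.538). SCG2 was the sole gene of the 24 whose libraries did not overlap, with 20.2 to 37.7 CPM in the S9 libraries, against 2.95 to 14.05 CPM in the S7 libraries (log2 fold change 1.88 with a standard error of 0.98, adjusted p by edgeR = 0.575). Of all genes 8.36% lay wholly higher in S9. TPPP ranged over 38.9 to 49.8 CPM in the S9 libraries, against 45.8 to 68.1 CPM in the S7 libraries (log2 fold change -0.38 with a standard error of 0.21, adjusted p by edgeR = 0.588). The standard errors of the 24 genes ran from 0.18 to 1.42 on the log2 scale. With 3 libraries a code, differences larger than their standard error also went uncalled, as for CNP and SCG2.

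**Figure D4:**
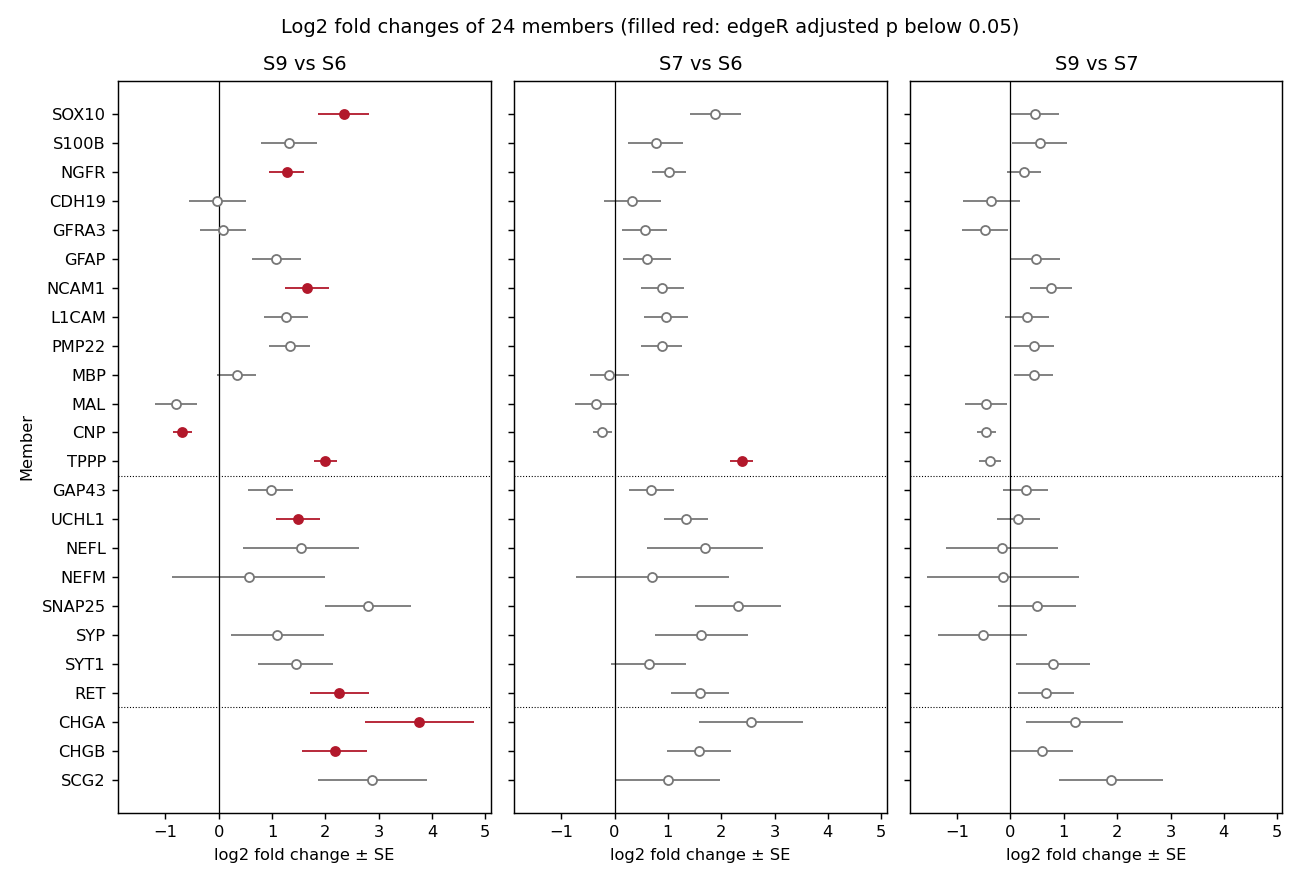
Log2 fold change with its standard error for the 24 tested genes in the comparisons S9 vs S6, S7 vs S6 and S9 vs S7, in the order glial, neuronal and neuroendocrine. Filled red points mark the 9 calls of S9 vs S6 and the call of TPPP in S7 vs S6, and S9 vs S7 has none.

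Within S6 and S7 the same libraries were high or low for most genes. In S6, S6_2 was the highest of the 3 libraries for 21 of the 24 genes, including all 8 neuronal and all 3 granule genes, and S6_3 was the lowest for 14. In S7, S7_2 was the highest for 18 genes and S7_3 the lowest for 16, and S7_3 was the highest for none. In S9 the order was more mixed, with S9_4 the highest for 12 genes and S9_1 the lowest for 12. S7_3 also had the lowest sum of smooth muscle markers in S7, with 3431 CPM against 5439 CPM in S7_4 and 11046 CPM in S7_2. It had the highest sum of fibroblast markers, with 75837 CPM against 43054 CPM in S7_4 and 33631 CPM in S7_2. S6_2 had the highest sum of smooth muscle markers in S6, with 3634 CPM against 2176 CPM in S6_3 and 2051 CPM in S6_4. The part of this in the levels of the nerve genes was not tested.

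The spread also differed between genes. In S9, SOX10, S100B, CDH19, PMP22, MBP and TPPP had coefficients of variation of 10.1 to 14.7%. Those of GFRA3, NCAM1, MAL, RET, SYT1 and SNAP25 were 44.96 to 58.3%, and those of SYP and NEFM were higher, at 67.7% and 97.8%. In S6 the coefficient was 4.97% for CNP and 21.9% for TPPP, but 125% for SCG2, 132% for CHGA, 135% for NEFL and 165% for NEFM. The 4 genes with the widest spread in S6 had a much higher value in S6_2 than in S6_3 and S6_4.

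**Figure D5:**
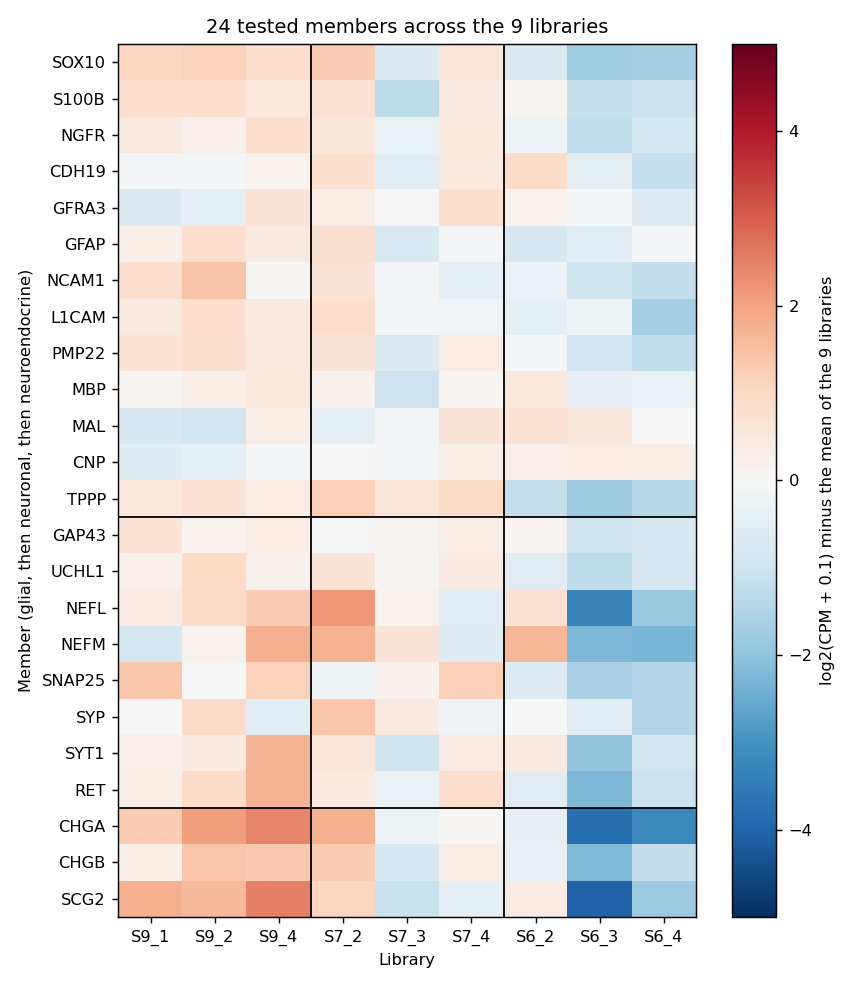
Level of each of the 24 tested genes in each library, as log2(CPM + 0.1) minus the mean of that gene over the 9 libraries. Red is above and blue below the mean, and S6_3 and S6_4 are the bluest columns for the neuronal and granule genes, while S7_2 and S6_2 are redder than the other libraries of their codes for most genes.

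In levels per length the 29 genes spanned a wide range. By the mean over the 9 libraries, MAL, CNP and PMP22 were followed by S100B at 10.2, NGFR at 9.84, MBP at 9.02 and CHGB at 8.45 FPKM. TPPP at 5.64, SCG2 at 5.27, CHGA at 5.05, NCAM1 at 4.46 and SOX10 at 4.42 FPKM lay close together. The order changed with the code. In S9, SCG2 averaged 11.4 ± 4.26 FPKM and CHGA 10.2 ± 4.03 FPKM, against 6.99 ± 0.605 FPKM for SOX10 (SD, n = 3). SCG2 was above SOX10 in each S9 library, and CHGA in S9_2 and S9_4 but not in S9_1. In S6, CHGA was at 1.84, 0.121 and 0.219 FPKM and SOX10 at 2.05, 0.894 and 1.07 FPKM, so that CHGA was below SOX10 in each S6 library, by the least in S6_2. SCG2 ranged from 0.116 to 3.64 FPKM in S6, which spans the S6 levels of SOX10.

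Other genes linked to these cells and pathways were read from lists, and which cells of the tissue expressed them was not tested. Some were far more abundant than SOX10 at 4.42 or UCHL1 at 1.89 FPKM over the 9 libraries. Examples were PAM at 94.04, VAMP2 at 61.02 and ERBB2 at 50.9 FPKM. The lists were chosen with earlier results of these data known. The shares called in them therefore describe the lists and do not test them. Of 20 further Schwann cell genes that were tested, FOXD3 was called higher and EGR2 lower in S9 than in S6, or 10%, which is near the share of all genes, and the list median was 0.81. FOXD3, a neural crest transcription factor kept by glial precursors, was found at 3.28, 3.07 and 3.34 CPM in the S9 libraries, against 1.11, 0.182 and 0.6702 CPM in the S6 libraries (log2 fold change 2.29 with a standard error of 0.59, adjusted p by edgeR = 0.0393). EGR2, which drives myelin genes and is also an early-response gene of immune cells, was found at 1.27, 1.64 and 1.297 CPM in the S9 libraries, against 2.46, 30.2 and 5.12 CPM in the S6 libraries (log2 fold change -3.16 with a standard error of 0.87, adjusted p by edgeR = 0.0471). S6_3 stood far above the other libraries, and without it the log2 fold change of EGR2 was -1.42 with an adjusted p by edgeR of 0.123. The receptor ERBB2 had a mean of 50.9 FPKM over the 9 libraries.

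Of 17 further neuronal genes 4 were called higher in S9 than in S6 and none lower, or 23.5%, against 6.02% of all tested genes called higher, with a median of 0.84. MAP1B, a microtubule protein of growing axons, was found at 101, 108 and 57.2 CPM in the S9 libraries, against 34.3, 30.7 and 25.3 CPM in the S6 libraries (log2 fold change 1.56 with a standard error of 0.27, adjusted p by edgeR = 0.0196). ISL1, a transcription factor of sensory and sympathetic neurons and of bladder mesenchyme, was found at 41.6, 38.2 and 40.6 CPM in the S9 libraries, against 23.4, 16.3 and 15.3 CPM in the S6 libraries (log2 fold change 1.13 with a standard error of 0.200, adjusted p by edgeR = 0.0196). The vesicle protein VAMP2, with a mean of 61.02 FPKM over the 9 libraries, was found at 154, 182 and 154 CPM in the S9 libraries, against 104, 74.9 and 95.1 CPM in the S6 libraries (log2 fold change 0.84 with a standard error of 0.16, adjusted p by edgeR = 0.0231). INA, an axonal filament protein, was called with 18, 14 and 42 counts in the S9 libraries, against 1, 0 and 1 counts in the S6 libraries.

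Among 18 further neuroendocrine, peptide and transmitter genes 4 were called higher in S9 than in S6 and none lower, or 22.2%, against 6.02% of all tested genes called higher, with a median of 1.396. PAM, which amidates peptides and with a mean of 94.04 FPKM was the most abundant of the list, averaged 561 ± 111 CPM in S9, against 269 ± 34.2 CPM in S6 (SD, n = 3; log2 fold change 1.06 with a standard error of 0.23, adjusted p by edgeR = 0.0264). PENK, the enkephalin precursor, was found at 22.4, 63.1 and 20.8 CPM in the S9 libraries, against 9.72, 8.05 and 5.47 CPM in the S6 libraries (log2 fold change 2.19 with a standard error of 0.502, adjusted p by edgeR = 0.0305). SLC6A2, the noradrenaline transporter of sympathetic fibres, averaged 6.95 ± 2.07 CPM in S9, against 1.67 ± 0.691 CPM in S6 (SD, n = 3; log2 fold change 2.06 with a standard error of 0.52, adjusted p by edgeR = 0.03896). SCG5, a chaperone of granule enzymes, averaged 10.5 ± 3.55 CPM in S9, against 2.38 ± 1.53 CPM in S6 (SD, n = 3; log2 fold change 2.14 with a standard error of 0.58, adjusted p by edgeR = 0.0463).

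Of 13 neurotrophic ligands and receptors, NTRK3, the receptor of neurotrophin-3, was called higher in S9 than in S6 and none lower, or 7.69%, which is near the 6.02% of all tested genes called higher, with a list median of 1.103. NTRK3 averaged 1.91 ± 1.22 CPM in S9, against 0.208 ± 0.154 CPM in S6 (SD, n = 3; log2 fold change 3.17 with a standard error of 0.87, adjusted p by edgeR = 0.0476). Sortilin (SORT1), a sorting receptor for neurotrophins, had a mean of 25.1 FPKM over the 9 libraries. Of 11 receptors for the peptides and transmitters VIPR2, CHRM3 and ADCYAP1R1 were called higher in S9 and none lower, or 27.3%, against 6.02% of all tested genes called higher, with a median of 2.22. VIPR2, a receptor for VIP on smooth muscle, was found at 75.6, 106 and 52.7 CPM in the S9 libraries, against 8.56, 4.15 and 12.3 CPM in the S6 libraries (log2 fold change 3.23 with a standard error of 0.51, adjusted p by edgeR = 0.0166), whereas VIP itself had no count. CHRM3, the muscarinic receptor that drives smooth muscle contraction, had 181, 258 and 23 counts in the S9 libraries, against 6, 2 and 1 counts in the S6 libraries (log2 fold change 5.58 with a standard error of 1.25, adjusted p by edgeR = 0.02900). ADCYAP1R1, the receptor of the peptide PACAP, was found at 18.7, 16.9 and 22.7 CPM in the S9 libraries, against 8.29, 10.1 and 7.13 CPM in the S6 libraries (log2 fold change 1.19 with a standard error of 0.298, adjusted p by edgeR = 0.0371). Of the 14 calls in these 5 lists, 0 were left without S9_1, S9_2 or S6_4, 5 without S6_3, 8 without S7_4 or S9_4 and 11 or 12 without S6_2, S7_2 or S7_3, and all 14 fold changes kept their sign in these settings. No gene of these lists was called by edgeR between S7 and S6 or between S9 and S7.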

How the data were processed

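Whole-number counts of reads per gene for 9 libraries were deposited by the authors, not normalized. Per the submitters' processing notes fastp, HISAT2 and HTSeq were used; versions, genome build and strand setting: not given in the sources used here. FPKM values of the same reads, also deposited by the authors, were used for levels per length. In all 172961 values above 0 they equalled the count over the library total and over a whole gene length (relative tolerance 1e-05). Overlapping or near-identical genes cannot be told apart.

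Groups are the codes in the sample titles. Genes passing edgeR's filterByExpr (minimum count 10, minimum total 15; 17102 of 28788) were fitted in 1 model of the 3 codes with TMM scaling and robust quasi-likelihood (edgeR 4.0.16, R 4.3.3), with 6 residual degrees of freedom and a biological coefficient of variation of 41.9%. Each standard error was the log2 fold change divided by the square root of F. The threshold was an adjusted p of 0.05. Alternatives used DESeq2 1.42.0, limma 3.58.1 (voom with quality weights for the libraries) and other scalings, filters and libraries. The fits were also run on counts simulated with the same biological variation for every gene and no deviating library. That run does not bear on calls that depend on single libraries. Named genes were all genes of the set that were called, a fixed list of representatives, and of each further list the called genes and the most abundant one by mean FPKM over the 9 libraries; the values of 3 genes of these lists are not reported here. The genes, lists and alternatives were chosen with earlier results of these data known. IDs without a symbol row were matched through RefSeq gene IDs of assembly mOryCun1.1 (TUBB3, ERBB3 and CD3G).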

Additional observations from a re-analysis of the deposited data

How the results depend on the processing

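Of the genes followed here, edgeR called 8 higher and 1 lower in S9 than in S6. The higher count was 5 with no filter, 12 with DESeq2 or limma-voom, 1 with the replicate block and 0 in the 6 libraries with many mitochondrial counts. The lower count was 0 with the block, with S9 and S6 fitted alone and in the 6 libraries. Leaving out 1 library gave 0 to 9 higher and 0 to 1 lower. For S7 against S6 the higher count of 1 was 6 with DESeq2 and 0 with the 2 codes alone or in the 6 libraries, and 0 to 1 with a library left out, and for S9 against S7 it was 0 in all fits. Over all genes, S9 against S6 gave 1030 higher and 1085 lower calls. These were 2035 and 2077 with DESeq2, 2082 and 1982 with limma-voom, 5 and 11 with the block, 3 and 4 in the 6 libraries and 746 and 689 with the 2 codes alone, and 0 to 1120 and 0 to 1108 with a library left out. For S7 against S6, with 8 and 11 calls, they were 682 and 735 with DESeq2, 136 and 172 with limma-voom, 1 and 0 with the block, 0 and 0 with the 2 codes alone or in the 6 libraries, and 0 to 4 and 0 to 6 with a library left out. For S9 against S7, with 0 calls, DESeq2 gave 28 and 95, the 6 libraries 0 and 1, and leaving out a library 0 and 0 to 1. The cause of these shifts was not tested, beyond the fewer libraries in the fits that leave some out. The replicate block treats the number after the code as a pair. Libraries with the same number correlated in their deviations from the code means at -0.0649 to 0.139 across genes. Libraries of different codes with different numbers correlated at -0.178 to 0.103. These ranges overlapped, and the labels do not say that the number pairs libraries, so the number is a hint at most. No called fold change of the genes followed reversed its sign. Low counts limit NEFM, SYP, SNAP25 and the genes below the filter.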
